A study of Mus musculus with 15 samples.

Results

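The genes S1pr1, S1pr4, S1pr5, Klf2 and Cd69 were followed in group 2 innate lymphoid cells (ILC2s) from mouse lungs. They were grouped as genes around the exit of lymphocytes from a tissue or their retention in it. A gene was taken from the array features that carry its symbol alone, with the brightest feature used where there were several. All 5 genes were found, each with 1 feature, among 22180 genes with such a feature, and all 5 passed the filter on dim features together with 16257 genes in all. ILC2s are tissue lymphocytes without rearranged antigen receptors that secrete IL-5 and IL-13. RNA of each sample was hybridised to 1 array, giving 15 arrays in 5 groups, each with 3 biological replicates. The naive groups were untreated females and untreated males of 8 weeks. Effector adult females and effector adult males were dosed through the nose with IL-33, a cytokine released by damaged epithelium to which ILC2s respond, once a day for 3 days, and their cells were taken 1 day after the last dose. Neonates were untreated and 10 days old. The labels give no sex for the neonates, no age for the effector adults and no mice dosed without IL-33, so IL-33 cannot be told apart from dosing. The sources used here do not give the strain, the sorting markers or the number of mice behind a sample.

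Sphingosine 1-phosphate (S1P) is a lipid that is abundant in blood and lymph and scarce inside tissues, and lymphocytes follow this gradient out of a tissue. S1PR1 is the receptor that most lymphocytes use for it, S1PR4 is found mainly on blood cells, and S1PR5 serves the exit of natural killer cells. KLF2 is a transcription factor of resting lymphocytes that switches on S1pr1 in T cells. CD69 is an early activation protein that binds S1PR1 and draws it off the cell surface, which holds cells in the tissue. The arrays measured RNA, so neither the surface receptor nor its removal by CD69 was seen.

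Levels are log2 values, on which a difference of 1 is a 2-fold change in signal. Arrays of a group correlated with each other at a mean r of 0.909 to 0.920 in neonates, 0.912 to 0.914 in naive males, 0.936 to 0.950 in naive females and 0.965 to 0.972 in the effector groups. The lowest values belonged to neonatal array 2 and to naive male arrays 3 and 1. Results are also given without these 3 arrays where that ended or made a call. That setting leaves naive male array 2 alone in its group. Olfactory and vomeronasal receptor genes, which lymphocytes do not use, served as a gauge of background signal. In naive adults the upper quartile of these 1405 features was 4.07, in effector adults 3.35 and in neonates 3.71. Levels below it are called background here, and the 5 genes lay above it in every group. Of 15 measured ILC2 marker genes none lay in the background in naive adults, effector adults or neonates, with Arg1 at a mean level of 11.16 and Il2ra at 10.72 over all arrays. Of the 15, 4 were higher and 2 lower in effector adults, where 23.7% of all 16257 genes were higher and 10.9% lower.

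S1pr1 was higher in effector than in naive adult ILC2s, and this was the largest difference among the 5 genes. Its level was 6.35, 6.66 and 6.17 on the 3 naive female arrays and 5.32, 4.89 and 5.69 on the naive male arrays. It was 7.79, 8.42 and 7.71 in effector females and 8.32, 7.93 and 8.08 in effector males. Every effector array thus lay above every naive array. S1pr1 rose by 2.19 ± 0.24 (SE, n = 6 effector and 6 naive arrays; limma, Benjamini-Hochberg adjusted p = 7.1e-06), a 4.57-fold change with an interval of 1.68 to 2.71 on the log2 scale. The rise was 1.58 ± 0.34 in females (adjusted p = 0.0061) and 2.81 ± 0.34 in males (adjusted p = 3.7e-05, limma, n = 3 arrays per group). The responses of the sexes differed by -1.23 ± 0.48 and this difference did not pass the test (limma adjusted p = 0.867). That test called none of the 16257 genes, with 866 at an unadjusted p under 0.05. In naive males 107 of 1405 sensory receptor features were brighter than S1pr1, or 7.62%, against 1.07% in naive females, so the naive male level lay nearest to the background and the size of the male rise is less certain.

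**Figure D1:**
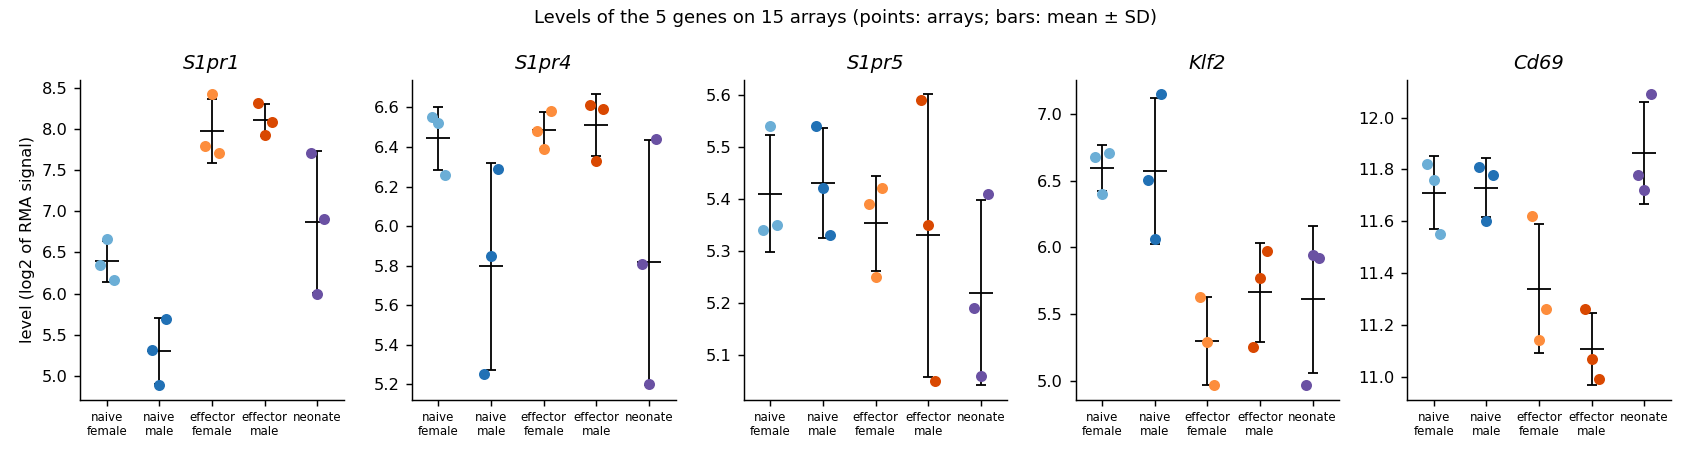
Level of each gene (log2 of the deposited signal, vertical axis with its own range in each panel) on the 3 arrays of each of 5 groups; points are arrays and bars the mean ± SD. The effector arrays of S1pr1 lie between 7.71 and 8.42, above all naive adult arrays (4.89 to 6.66), and those of Klf2 lie between 4.97 and 5.97, below all naive adult arrays (6.06 to 7.15).

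Klf2 moved the other way. Its level was 6.68, 6.40 and 6.71 in naive females and 6.51, 6.06 and 7.15 in naive males. In effector females it was 5.63, 5.29 and 4.97, and in effector males 5.25, 5.77 and 5.97. Each effector array lay below each naive array, although the highest effector male array and the lowest naive male array were only a small step apart. Klf2 fell by 1.11 ± 0.22 (SE, n = 6 effector and 6 naive arrays; limma adjusted p = 0.00107), a 2.15-fold decrease. The fall was -1.30 ± 0.31 in females (adjusted p = 0.0101) and -0.91 ± 0.31 in males (adjusted p = 0.0415, limma, n = 3 arrays per group). Without neonatal array 2 and naive male arrays 1 and 3 the male difference was -0.40 and not called. Naive males then rested on array 2 alone, at 6.06 the lowest of its group. The male call was lost without naive male array 3, at -0.62 (limma adjusted p = 0.159). It was also lost without any of 5 other arrays, at values from -0.96 to -0.70, namely effector male arrays 1 and 2, naive male array 1, effector female array 2 and naive female array 1. Other settings that ended it were centred arrays, at -0.75, no filter on dim features and a fit of only the arrays compared (limma adjusted p = 0.0842, 0.0516 and 0.0713). The female call was lost without effector female array 3, at -1.14 (limma adjusted p = 0.0551). The call over both sexes held without each of the 15 arrays, at -1.23 to -0.96.

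The promoter of Klf2 is shown because Klf2 transcription is known to depend on a site for MEF2 factors, and a MEF2 motif is found in it. The sequence is the 250 bases before the start in RefSeq (GRCm38.p6, chr8:72318812-72319061, plus strand), 5′ to 3′, with matches in capitals.
Klf2: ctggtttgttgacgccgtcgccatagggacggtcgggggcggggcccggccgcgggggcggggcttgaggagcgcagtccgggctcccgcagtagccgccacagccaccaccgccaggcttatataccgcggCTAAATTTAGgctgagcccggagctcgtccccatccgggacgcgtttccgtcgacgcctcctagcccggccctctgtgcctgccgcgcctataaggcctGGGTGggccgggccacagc
The first run of capitals, CTAAATTTAG, matches the MEF2 motif and begins 118 bases before the start. The motif searched was CTA, any 4 bases and TAG, and 3.7% of 32851 promoter windows of 300 bases in the table hold a match to it. The second is the core of KLF family sites, CACCC, read on the opposite strand at 19 bases before the start, which 57.5% of the windows hold on one strand or the other. Neither the forkhead motif TGTTTAC, held by 3.6% of windows, nor the AP-1 motif TGANTCA, held by 7.8%, was found in the 300 bases. These matches describe letters and show no binding.

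Cd69 was abundant in all groups and was slightly lower in effector cells. Its level was 11.82, 11.76 and 11.55 in naive females, 11.81, 11.60 and 11.78 in naive males, 11.62, 11.14 and 11.26 in effector females and 11.26, 11.07 and 10.99 in effector males. Effector female array 1 reached into the naive range, and the other 5 effector arrays lay below it. Cd69 fell by 0.50 ± 0.12 (SE, n = 6 effector and 6 naive arrays; limma adjusted p = 0.0051), a 1.41-fold decrease. The fall was -0.62 ± 0.17 in males (adjusted p = 0.0158) and the difference was -0.37 ± 0.17 in females, which did not pass (limma adjusted p = 0.172, n = 3 arrays per group). The responses of the sexes differed by 0.25 ± 0.24 (limma adjusted p = 0.982), so they were not shown to be unequal. The male call ended without effector male array 2 or 3, at -0.60 and -0.56, and with centred arrays, at -0.47 (limma adjusted p = 0.0654). Without neonatal array 2 and naive male arrays 1 and 3 the male difference was -0.49 and not called. Naive males then rested on array 2 alone.

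The receptors S1pr4 and S1pr5 did not pass the test between effector and naive adults. S1pr4 was at 6.55, 6.52 and 6.26 in naive females, 5.25, 5.85 and 6.29 in naive males, 6.48, 6.39 and 6.58 in effector females and 6.61, 6.33 and 6.59 in effector males. Only the naive male arrays were spread out, and each of them lay below each effector male array. The difference over both sexes was 0.38 ± 0.20 (interval -0.05 to 0.80; limma adjusted p = 0.159), with 0.04 ± 0.28 in females and 0.71 ± 0.28 in males (limma adjusted p = 0.944 and 0.0792). The male value ran from 0.44 without naive male array 1 to 0.96 without naive male array 3, where it became a call (limma adjusted p = 0.0259). It also became one without neonatal array 2 or 3, which left the difference at 0.71 (limma adjusted p = 0.0397 and 0.0405), with centred arrays, at 0.87, and with array weights, at 0.73 (limma adjusted p = 0.0392 and 0.0353).

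S1pr5 had the narrowest spread of the 5 genes, between 5.05 and 5.59 over the 15 arrays. Its difference between effector and naive adults was -0.08 ± 0.12 (interval -0.33 to 0.18; limma adjusted p = 0.655), so a change beyond either bound lay outside the interval. Of the sensory receptor features 5.41% were brighter than S1pr5 in naive adults, 1.92% in effector adults and 2.78% in neonates, which places its signal above most of the background. No probe sequences were used here, and whether this level is S1pr5 transcript was not tested.

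The table held promoters of 3 of the 5 genes, and CACCC was found in those of both these receptors. The matches are shown with 10 bases on either side (GRCm38.p6, minus strand, 5′ to 3′, motif or its reverse complement in capitals), because KLF factors bind this core. S1pr4 held 1 match at chr10:81500230-81500254 and S1pr5 held 2, at chr9:21248645-21248669 and chr9:21248557-21248581.
S1pr4: tgttatgcatGGGTGgtacttgatg
S1pr5, first: tgggccctccCACCCcgagtgtccc
S1pr5, second: gtgccgcggcGGGTGgcacaggctg
Since 57.5% of promoters in the table hold this core, its presence sets neither gene apart. The forkhead, AP-1 and MEF2 motifs were not found in the 300 bases of either gene.

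Of the 5 genes, 3 were thus called between effector and naive adults, 1 higher and 2 lower, where 34.6% of all 16257 genes were called, 23.7% higher and 10.9% lower. Within females 1 was called higher and 1 lower, where 10.2% of all genes were higher and 3.77% lower (14.0% in all). Within males 1 was called higher and 2 lower, where 18.7% were higher and 6.25% lower (24.9% in all). The median difference over all genes was 0.03 as deposited, and subtracting its own median from every array raised this to 0.17. With centred arrays S1pr1 differed by 2.33, Klf2 by -0.97 and Cd69 by -0.36, and all 3 were still called (limma adjusted p = 4.2e-06, 0.00291 and 0.0373). Less the median of all genes on that scale these were 2.16, -1.14 and -0.53. Within males alone centring left S1pr1 and S1pr4 called higher and none of the 5 lower. Without neonatal array 2 and naive male arrays 1 and 3, the calls of S1pr1, Klf2 and Cd69 over both sexes held. Naive males then rested on array 2 alone.

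**Figure D2:**
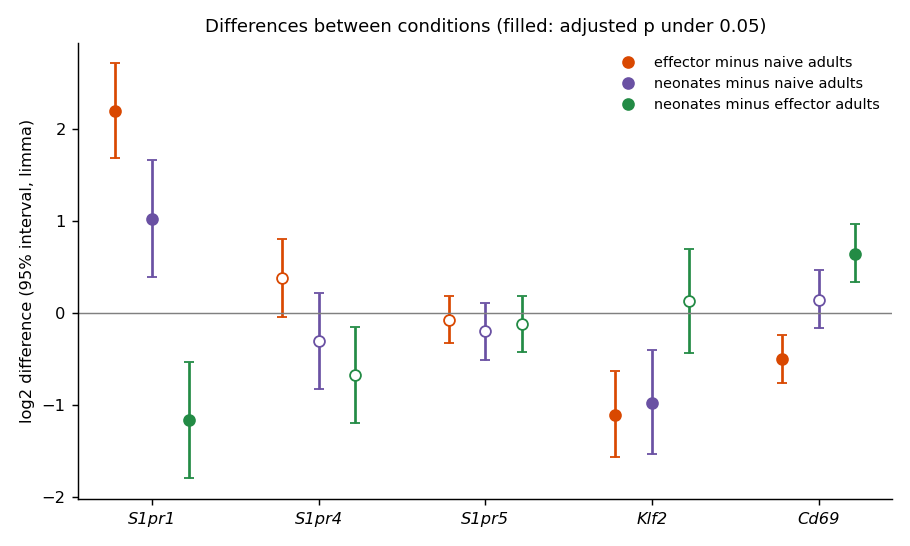
Log2 difference of each gene in 3 comparisons of conditions, with the 95% interval of limma; filled points passed an adjusted p of 0.05. S1pr1 was higher in effector adults by 2.19 and in neonates by 1.02 than in naive adults, Klf2 was lower by 1.11 and 0.98, and Cd69 was lower in effector adults alone, while the intervals of S1pr5 include 0 throughout.

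Neonatal ILC2s had S1pr1 between naive and effector adults and Klf2 near the effector level. S1pr1 was at 7.71, 5.99 and 6.91 on the 3 neonatal arrays, which is the widest spread of any group. Array 1 lay at the lower edge of the effector range and array 2 between the naive male and the naive female arrays. S1pr1 was higher than in naive adults by 1.02 ± 0.30 (SE, n = 3 neonatal and 6 naive arrays; limma adjusted p = 0.041) and lower than in effector adults by -1.17 ± 0.30 (n = 3 and 6 arrays; limma adjusted p = 0.0124). The higher level against naive adults rested on naive males: it was 0.48 against naive females alone (limma adjusted p = 0.479). It was 0.60 without neonatal array 1 and 1.46 without neonatal array 2 (limma adjusted p = 0.21 and 0.00407). It was 1.67 without neonatal array 2 and naive male arrays 1 and 3. Naive males then rested on array 2 alone, whose S1pr1 level of 4.89 was the lowest of the 15 arrays. The call was lost without 11 of the 15 arrays taken out singly, among them 5 effector arrays that are no part of the comparison, and with no filter on dim features (limma adjusted p = 0.0504). The lower level against effector adults was lost without neonatal array 2, at -0.73, and without that array and naive male arrays 1 and 3, also at -0.73 (limma adjusted p = 0.0864 and 0.0654).

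Klf2 was at 4.97, 5.94 and 5.92 in neonates, below every naive adult array. It was lower than in naive adults by -0.98 ± 0.27 (SE, n = 3 neonatal and 6 naive arrays; limma adjusted p = 0.0303) and differed from effector adults by 0.13 ± 0.27 (interval -0.44 to 0.69; limma adjusted p = 0.771). Neonatal array 1 had both the highest S1pr1 and the lowest Klf2 of the neonatal arrays. Without it the difference of Klf2 from naive adults was -0.66 and was not called (limma adjusted p = 0.162). The call was also lost without naive female array 1 or 3, at -0.96 and -0.95, and without neonatal array 2 and naive male arrays 1 and 3, at -0.89. Against females or males alone Klf2 differed by -0.99 and -0.97 and passed in neither (limma adjusted p = 0.0746 and 0.0637).

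Cd69 was at 11.78, 11.72 and 12.09 in neonates, above all effector arrays. It was higher than in effector adults by 0.64 ± 0.15 (SE, n = 3 and 6 arrays; limma adjusted p = 0.00723) and differed from naive adults by 0.14 ± 0.15 (limma adjusted p = 0.594). S1pr4 was at 5.81, 5.20 and 6.44, from below the lowest naive array to within the effector range. It differed by -0.31 ± 0.24 from naive and by -0.68 ± 0.24 from effector adults (limma adjusted p = 0.473 and 0.0605). The former ran from -0.62 without neonatal array 3 to 0.00 without neonatal array 2. The latter was called without neonatal array 3, at -1.00, without naive male array 1 or 3, at -0.68, and with centred arrays, at -0.79, and it was -0.37 without neonatal array 2. S1pr5 was at 5.19, 5.06 and 5.41 and differed by -0.20 ± 0.14 and -0.12 ± 0.14 (limma adjusted p = 0.423 and 0.58). Thus 2 of the 5 genes were called against naive adults, where 10.2% of all genes were (6.04% higher and 4.12% lower), and 2 of 5 against effector adults, where 20.6% were (5.93% higher and 14.7% lower). Both comparisons use the same neonatal arrays, and the comparisons with naive adults share their naive arrays.

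**Figure D3:**
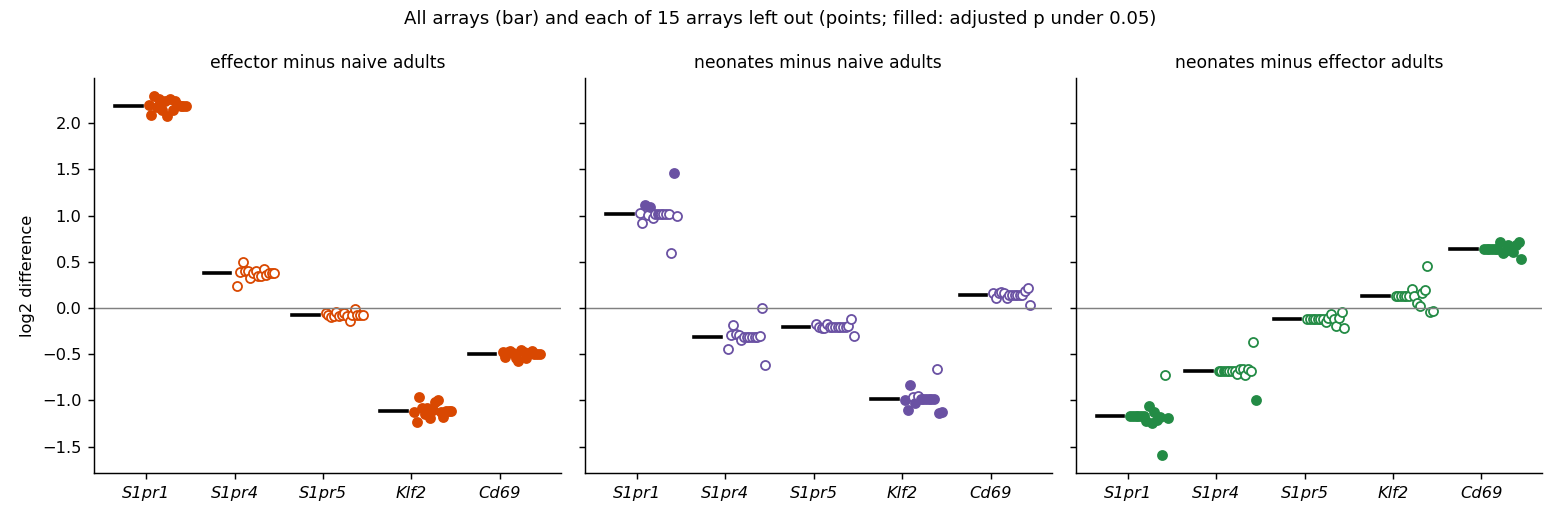
Log2 difference of each gene with all arrays (bars) and with each of 15 arrays left out in turn (points, spread sideways to be seen; filled where the adjusted p was under 0.05), in 3 comparisons. For effector against naive adults S1pr1 stays between 2.08 and 2.29 and Klf2 between -1.23 and -0.96 with every point filled, while against naive adults the neonatal values of S1pr1 run from 0.60 to 1.46 and most of its points are open.

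Placed in order of level, S1pr1 was highest in effector males (8.11 ± 0.20, SD, n = 3) and effector females (7.97 ± 0.39), then neonates (6.87 ± 0.86), naive females (6.39 ± 0.25) and naive males (5.30 ± 0.40). The ranges of the effector groups overlapped, as did those of neonates and naive females, and the highest neonatal array reached the lowest effector female array. Klf2 was highest in naive females (6.60 ± 0.17) and naive males (6.57 ± 0.55), followed by effector males (5.66 ± 0.37), neonates (5.61 ± 0.55) and effector females (5.30 ± 0.33). Ranges overlapped within the first pair and among the last 3 groups. Cd69 ran from neonates (11.87 ± 0.19) through naive males (11.73 ± 0.11) and naive females (11.71 ± 0.14) to effector females (11.34 ± 0.25) and effector males (11.11 ± 0.14), each overlapping with the next.

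S1pr1 was the member that stood apart most between the sexes at rest. Its naive female arrays all lay above its naive male arrays, with a difference of 1.09 ± 0.34 (n = 3 arrays per group) that did not pass over all genes (limma adjusted p = 0.292, unadjusted p = 0.00606). It was 1.50 without neonatal array 2 and naive male arrays 1 and 3, which passed (limma adjusted p = 0.0484) with a single naive male array left, assumed to vary like the other groups. In effector cells the sexes differed by -0.14 ± 0.34 (limma adjusted p = 1). For S1pr4 the naive difference was 0.64 ± 0.28 (limma adjusted p = 0.466). Klf2, Cd69 and S1pr5 differed between naive females and males by 0.02 ± 0.31, -0.02 ± 0.17 and -0.02 ± 0.17. The value of Klf2 ran from -0.23 without naive male array 2 to 0.31 without naive male array 3, and was 0.53 without neonatal array 2 and naive male arrays 1 and 3. Summed marker signals, described below, also stood apart between these groups. T cell markers lay between 10.57 and 10.70 on naive female and between 10.22 and 10.42 on naive male arrays, and mast cell and basophil markers between 9.10 and 9.31 and between 8.00 and 8.29. Their part in the difference of S1pr1 was not tested. None of the 5 genes was called between the sexes at rest, where 0.209% of all genes were (0.105% in either direction), or in effector cells, where 0.0308% were (0.00615% higher and 0.0246% lower in females).

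The other genes of S1P signalling were read from the same fit. Of the remaining receptors, S1pr2, which couples to proteins that inhibit migration, differed by 0.34 ± 0.16 between effector and naive adults (limma adjusted p = 0.112) and was called higher with centred arrays, at 0.48. S1pr3 lay in the background at 3.18 in naive and 3.05 in effector adults. Of 6 tested genes that make S1P or its precursor sphingosine, 2 were higher and none lower, and 4 were higher with centred arrays. As deposited both were ceramidases, Acer3 at 1.17 ± 0.29 (limma adjusted p = 0.00595), which lay in the background in naive adults, and Asah2 at 0.57 ± 0.15 (limma adjusted p = 0.00981). The S1P-forming kinases Sphk1 and Sphk2 differed by 0.06 ± 0.13 and 0.34 ± 0.14 (limma adjusted p = 0.749 and 0.0691). Of 9 genes of breakdown and export 1 was higher (2 with centred arrays), the transporter Abcc1 at 0.70 ± 0.17, and 1 lower, the cholesterol and lipid exporter Abca1 at -0.88 ± 0.19 (limma adjusted p = 0.00458 and 0.00182). The S1P lyase Sgpl1 differed by 0.49 ± 0.22 (limma adjusted p = 0.107). Medians of these 2 lists were 0.46 and 0.36, beside 0.03 for all genes. Their counts as deposited stand beside 23.7% higher and 10.9% lower over all genes.

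Genes that carry or end the receptor's signal were higher more often than lower, as genes in general were. Of 19 tested, 7 were higher and 1 lower in effector adults, where 23.7% of all genes were higher and 10.9% lower. Their median was 0.21, beside 0.03 for all genes. Rgs16 and Rgs1, GTPase activators that shorten signalling by chemoattractant receptors, were higher by 1.34 ± 0.24 and 0.70 ± 0.13 (limma adjusted p = 5.3e-04 and 7.7e-04). Rgs1 lay between 9.63 and 9.98 on naive adult arrays and between 10.34 and 10.85 on effector arrays, with no overlap. Gnai2, the inhibitory G protein subunit through which S1PR1 acts, was higher by 0.77 ± 0.12 (limma adjusted p = 1.6e-04). The only lower gene was Rgs2, at -0.61 ± 0.11, which was named after its value was seen. The receptor kinases Grk5 and Grk6 and the arrestins Arrb1 and Arrb2, which take active receptors off the surface, did not pass.

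Factors around Klf2 were lower or did not pass. Of 16 genes that regulate Klf2 or belong to its family, none was higher and 6 were lower in effector adults (median -0.23). Over all genes 23.7% were higher and 10.9% lower. After centring 1 of the 16 was higher and 3 were lower, so this count depends on the scaling. Klf3, a repressor of the same family, fell from 6.14 to 6.53 on naive adult arrays to 4.97 to 5.74 on effector arrays, by 1.02 ± 0.14 (limma adjusted p = 4.1e-05). Mef2a, which encodes a MEF2 factor, differed by -0.58 ± 0.11 (limma adjusted p = 8.6e-04) and lay between 9.34 and 9.95 on naive and between 8.98 and 9.32 on effector arrays. Klf4 fell by 0.60 ± 0.12 (limma adjusted p = 0.00107). Foxo1, which activates Klf2 in T cells, differed by 0.10 ± 0.13 (limma adjusted p = 0.603).

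Genes that lymphocytes lose when Klf2 or Foxo1 is deleted did not follow Klf2 as a group. Of 6 tested, 3 were higher and 1 lower in effector adults, where 23.7% of all genes were higher and 10.9% lower. Plac8 had the largest rise, by 3.36 ± 0.16 (limma adjusted p = 6.4e-10), from 5.77 to 6.90 on naive to 9.32 to 9.79 on effector arrays. The lymph node homing receptor Ccr7 rose by 1.47 ± 0.22 (limma adjusted p = 1.2e-04). Il7r, the IL-7 receptor chain that Foxo1 maintains, fell by 1.11 ± 0.14 (limma adjusted p = 2.8e-05).

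Genes tied to tissue residence changed in both directions. Of 18 tested, 8 were higher and 3 lower in effector adults, with a median of 0.34. Itgae, the integrin chain that binds E-cadherin, was higher by 2.13 ± 0.22 and Ccr4, a chemokine receptor of type 2 lymphocytes, by 1.93 ± 0.16 (limma adjusted p = 3.3e-06 and 4.1e-07). The chemokine receptor Ccr8 fell by 1.09 ± 0.14 (limma adjusted p = 2.9e-05). These lists stand beside 23.7% higher and 10.9% lower over all genes, and no list was set against other genes by a test.

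**Figure D4:**
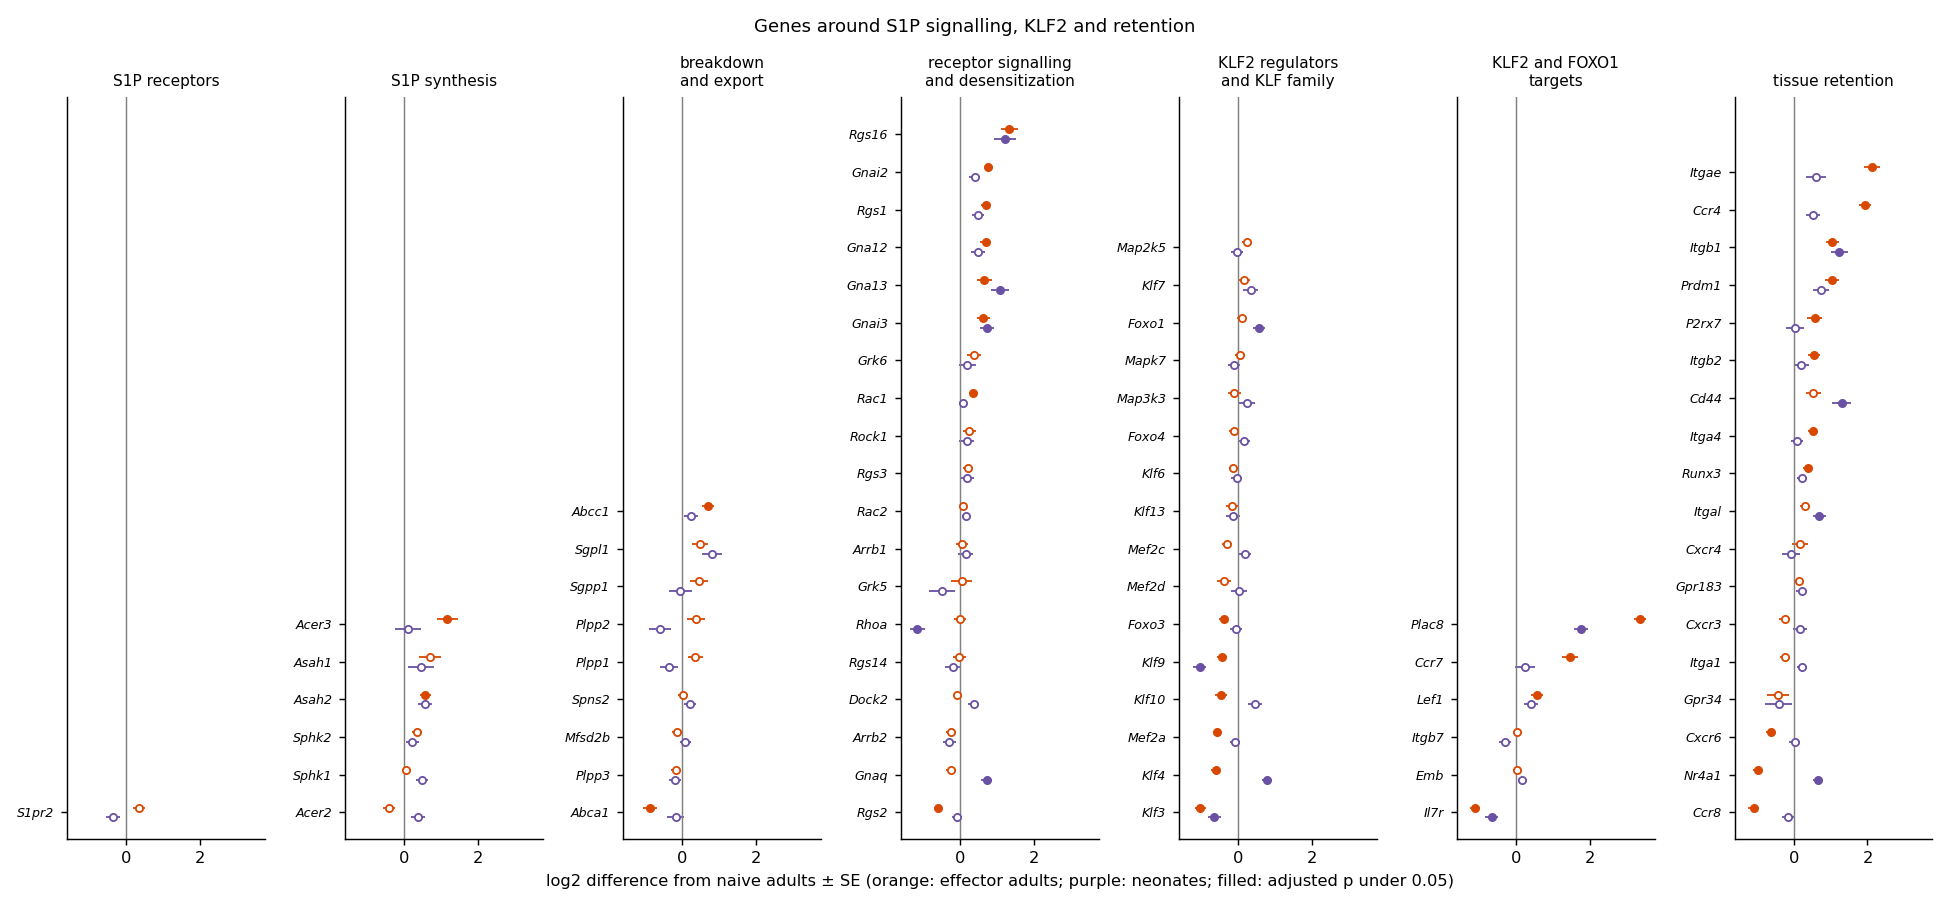
Log2 difference from naive adults (horizontal axis, ± SE of limma) of the tested genes of 7 lists around S1P signalling, KLF2 and retention, in effector adults (orange) and neonates (purple); filled points passed an adjusted p of 0.05. Plac8 at 3.36 and Itgae at 2.13 have the largest effector differences. None of the KLF2 regulators and KLF family genes is filled on the higher side in effector adults, where 1 is called higher once arrays are centred. Of the 6 KLF2 and FOXO1 targets, 3 are filled on the higher side.

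In neonates fewer genes of any kind were called, 10.2% of all genes against naive adults beside 34.6% in effector adults. None of the 6 S1P synthesis and none of the 9 breakdown and export genes was called against naive adults, with Asah2 at 0.56 ± 0.19 and Sgpl1 at 0.82 ± 0.27 (limma adjusted p = 0.0715 and 0.0714). Of the 19 signalling genes 4 were higher and 1 lower. Rgs16 was higher by 1.22 ± 0.29, and Rhoa, a GTPase of cell contraction, was lower, at -1.16 ± 0.20 (limma adjusted p = 0.0161 and 0.00176). Among the Klf2 regulators and relatives 2 were higher and 2 lower, with Klf4 at 0.78 ± 0.14, Klf9 at -1.04 ± 0.18 and Foxo1 at 0.57 ± 0.16 (limma adjusted p = 0.00286, 0.00177 and 0.0392). Klf4 thus lay above naive adults in neonates and below them in effector adults. Plac8 was higher by 1.77 ± 0.19 and Il7r lower, at -0.66 ± 0.17 (limma adjusted p = 4.0e-05 and 0.0263). Of the 18 retention genes 4 were higher, among them the hyaluronan receptor Cd44 at 1.30 ± 0.25 and the integrin chain Itgb1 at 1.24 ± 0.22 (limma adjusted p = 0.0046 and 0.00196). Over all genes 6.04% were higher and 4.12% lower.

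Each of the 5 genes was then set beside the genes whose levels followed it most closely over the 15 arrays. Likeness was the root mean square difference of the levels after each gene was centred on its own mean, so it describes these arrays and carries no test. The nearest to S1pr1, which varied with an SD of 1.15, were the sterol enzyme gene Cyp51 at 0.33, the DNA polymerase subunit Pola1 at 0.34 and the replication origin factor Orc6 at 0.35. Klf2 (SD 0.66) was nearest to the ubiquitin ligase gene Nedd4l at 0.28, Tespa1, which acts in antigen receptor signalling, at 0.30 and Mtln at 0.32. Cd69 (SD 0.33) was nearest to the elongation factor gene Aff4 at 0.13, the cytokine signalling inhibitor Cish at 0.13 and the NF-kB inhibitor Nfkbia at 0.14. S1pr4 (SD 0.47) was nearest to Ndufv3, Pgm2 and Vkorc1l1, at 0.18 to 0.20. S1pr5 (SD 0.16) was nearest to Ccdc114, Lpin3 and Lrrc45, at 0.10 to 0.11, little less than its own SD.

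Other measures moved with these differences. The summed signal of 13 proliferation genes, as a log2 value, was 10.60 to 10.97 on naive adult, 12.84 to 13.28 on effector and 11.92 to 12.29 on neonatal arrays, the same order as S1pr1. All 13 were higher in effector adults and 12 in neonates, with Mki67 higher by 4.87 ± 0.22 in effector adults and 3.96 ± 0.27 in neonates (limma adjusted p = 4.6e-10 and 4.7e-07). Immediate early genes, which stimulation and tissue handling switch on within minutes, summed to 14.42 to 14.70 on naive adult, 13.56 to 13.96 on effector and 14.38 to 14.64 on neonatal arrays. Of 21 tested, 15 were lower and 2 higher in effector adults, with Btg2 at -1.77 ± 0.14, Egr3 at -1.44 ± 0.31 and Zfp36 at -1.43 ± 0.17 (limma adjusted p = 2.7e-07, 0.00203 and 1.3e-05). Against naive adults 2 of them were higher and 2 lower in neonates (3 and none with centred arrays), with Nr4a2 at 1.09 ± 0.28 and the heat shock gene Hspa1a at -1.88 ± 0.57 (limma adjusted p = 0.0219 and 0.0474). As deposited, the counts of both sets stand beside 23.7% higher and 10.9% lower over all genes in effector adults. For neonates against naive adults these shares were 6.04% and 4.12%. The part of either set of genes in the differences of S1pr1, Klf2 and Cd69 was not tested.

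Markers of other cells that carry these transcripts were measured on the same arrays, and their counts stand beside 23.7% higher and 10.9% lower over all genes. Endothelial cells are rich in S1pr1 and Klf2, and their 13 markers summed to 8.56 to 9.49 on naive adult, 9.04 to 9.14 on effector and 8.92 to 9.10 on neonatal arrays. Of 12 tested, 6 were lower and none higher in effector adults (5 and 1 with centred arrays). Emcn lay in the background, as 1 of the 13 did in naive adults, effector adults and neonates. The brightest were Pecam1, Eng and Egfl7, at means of 7.62, 5.94 and 5.81 over all arrays. T cells are rich in S1pr1 and Klf2 as well. Their 8 markers summed to 10.22 to 10.70 on naive adult and 9.59 to 10.14 on effector arrays, with Cd8a in the background in naive adults and 2 of 8 lower (1 with centred arrays), Cd3g at -0.58 ± 0.14 and Cd8b1 at -0.56 ± 0.18 (limma adjusted p = 0.00396 and 0.023). Neonatal T cell markers summed to 10.40 to 10.89, with Cd3e higher than in naive adults by 1.21 ± 0.25 (limma adjusted p = 0.00587). The 8 B cell markers summed to 9.99 to 10.38 on naive adult, 8.10 to 8.98 on effector and 9.10 to 9.84 on neonatal arrays, and of 5 tested 1 was lower and 1 higher in effector adults. Ighm, the brightest, fell by 2.19 ± 0.21 and Cd79b was the higher one (limma adjusted p = 1.5e-06 and 0.00417), while Ms4a1 and Ebf1 lay in the background in naive adults, effector adults and neonates. Natural killer cells are rich in S1pr5. Their 11 markers summed to 8.31 to 8.53, 8.01 to 8.42 and 8.29 to 8.44 in the same order, with 3 of 8 tested lower and 1 higher in effector adults (1 lower and 2 higher with centred arrays). Eomes lay in the background in naive adults, effector adults and neonates. Of the 11, 5 did so in naive adults and 2 each in effector adults and neonates. The brightest were Nkg7, Prf1 and Tbx21, at means of 6.99, 5.30 and 5.16 over all arrays.

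Among 14 myeloid markers, whose neutrophils are rich in S1pr4, the sums were 7.88 to 8.78 on naive adult, 7.86 to 8.01 on effector and 7.93 to 8.39 on neonatal arrays. S100a8 and Ly6g lay in the background in all of these. Of the 14, 5 did so in naive adults, 3 in effector adults and 5 in neonates. The brightest were Cd68, Adgre1 and Csf1r, at means of 5.99, 4.29 and 4.27 over all arrays. Mast cell and basophil markers summed to 8.00 to 9.31, 7.77 to 8.73 and 10.61 to 10.75, the neonatal arrays being highest, with Cpa3 higher in neonates than in naive adults by 2.43 ± 0.20 (limma adjusted p = 3.0e-06). Epithelial and fibroblast markers summed to 8.70 to 9.12, 8.57 to 8.91 and 8.99 to 9.59. The brightest were Ager, Krt8 and Cdh1, at means of 6.37, 5.85 and 5.80 over all arrays. None of 11 tested was called in effector adults, where 34.6% of all genes were. The summed T cell and B cell markers were lower on every effector array than on every naive adult array. These sums add linear signal, so each rests mostly on its brightest gene. Mean levels were 10.02 for Cd3g beside 6.35 for Cd3e, and 8.93 for Ighm beside 5.89 for Cd79b. Of the 8 T cell markers tested in effector adults, 6 were not called. The background gauge was lower too, with an upper quartile of 4.07 in naive and 3.35 in effector adults. Its part in the lower marker signals was not tested. The part of other cells in the differences of the 5 genes was not tested either. In samples of whole RNA fewer cells of a type and less RNA per cell cannot be told apart.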

How the data were processed

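Lung ILC2 RNA was isolated in Trizol and biotin-labelled for Affymetrix arrays, per the labels' protocols. The deposited values are log2 levels made by the authors with Affymetrix Expression Console and RMA, per the submitters' processing notes, which give no versions. Of 41345 features, 23521 had exactly 1 symbol and were used. A feature was kept where 3 or more arrays put it above their percentile 40, and of several features of a gene the brightest was used, which left 16257 genes. Group means of the 15 arrays were estimated together in 1 linear model (limma 3.58.1, R 4.3.3). Tests were two-sided over 8 comparisons, with Benjamini-Hochberg adjustment over all genes and a threshold of 0.05. SEs and 95% intervals come from this fit, SDs from the arrays. Nothing says how many mice a replicate held, so p-values measure the spread between these samples. For arrays, their number limits the precision. Data of effector against naive adults were simulated for 16257 genes with a common spread (SD 0.275). Genes with a wider spread and the neonatal comparisons were not simulated. Of 100 genes moved by 1 log2 unit 99 were recovered, and of 100 moved by 2 all were. Among the genes that were not moved 5 were called falsely. The 5 genes and the gene lists were chosen with earlier results of these data known. Genes were named by a fixed rule. From each list other than cell markers and proliferation it took up to 3 called genes with the largest effector and up to 2 with the largest neonatal difference. It also took the 3 genes most like each of the 5. From the marker and proliferation lists it asked for the 3 brightest and the called genes, of which only some are named here. Other genes are named for their role in the pathway or as absent markers and were picked after their values were seen. The alternatives were no filter or percentile 60, centred arrays, further quantile normalization, a trended and robust prior, the mean of a gene's features, array weights, a replicate block, only the arrays compared, 1 sex of adults, and leaving out each array or the 3 least correlated ones. Promoters are RefSeq's (GRCm38.p6), matched by symbol for 3 of 5 genes. Figures were drawn with matplotlib 3.10.9.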

Additional observations from a re-analysis of the deposited data

How the results depend on the processing

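Without each array in turn, effector minus naive adults gave 2.08 to 2.29 for S1pr1, -1.23 to -0.96 for Klf2 and -0.57 to -0.45 for Cd69. It gave 0.24 to 0.50 for S1pr4 and -0.14 to -0.01 for S1pr5. Over both sexes together the calls of S1pr1, Klf2 and Cd69 held under every alternative run. Taking 1 sex of adults was an alternative for the neonatal comparisons only. Neonates minus naive adults gave 0.60 to 1.46 for S1pr1 and -1.14 to -0.66 for Klf2; neonates minus effector adults gave -1.59 to -0.73 for S1pr1, -1.00 to -0.37 for S1pr4 and 0.53 to 0.71 for Cd69. Calls against naive adults were lost for S1pr1 with no filter (1.02), array weights (1.12), a replicate block (1.02), only the arrays compared (1.02) and females alone (0.48), and for Klf2 with array weights (-1.02), only the arrays compared (-0.98), females (-0.99) or males alone (-0.97) and without the 3 arrays least correlated with their group (-0.89). Against effector adults S1pr1 (-0.73) was lost without those 3 and Cd69 (0.53) against females alone, while S1pr4 was called at percentile 60 (-0.68) and after centring (-0.79). The cause was not tested.

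Called genes moved with array weights to 3745 in females, 705 and 2068 for neonates against naive and effector adults, and 19 and 11 for sex in naive and effector cells. With only the arrays compared they were 676 for neonates against naive adults and 8 for sex in either state. Against females alone neonates had 935 and 1942. Leaving out the 3 arrays least correlated with their group left naive male array 2 alone in its group. Counts between the sexes in that setting therefore cannot tell sex from that 1 array. Without the 3 arrays 72 genes differed in the response of the sexes and 381 between naive sexes. The test of the difference of responses called 0 genes as reported in limma and 1 at percentile 60, after centring, with array weights or with the block. Without single arrays the counts ran from 1358 to 2515 in females, 2607 to 4403 in males, 0 to 8 for the difference of responses, 1031 to 1856 and 2061 to 3761 for neonates against naive and effector adults, and 16 to 99 between naive sexes. The lowest came without effector female array 2 in females, effector male array 3 in males, neonatal arrays 1 and 2 in the neonatal comparisons and naive female array 3 between naive sexes. The difference of responses and the naive sexes had their highest counts without naive male array 3. Centring raised the share of higher calls from 68.5% to 83.0% for effector adults, from 73.1% to 83.9% in females and from 74.9% to 86.8% in males, and lowered it from 28.8% to 16.4% for neonates against effector adults. Replicate numbers were not shown to pair arrays: same-numbered arrays deviated together at r = -0.11 to 0.10, and 5 of 15 lay closest to their own number. With the block no other call on the 5 genes changed in the 3 comparisons of conditions.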
